A study of Homo sapiens with 4 samples.

Results

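The heat shock chaperones and co-chaperones of the cytosol and mitochondria were examined in cultures of A2058, which is an established line from a human melanoma. The set held 38 gene symbols, taken from a list of heat shock factors, heat shock proteins and their partners, and all probes of those symbols were used whatever their values. Of the 20045 genes with a named probe on the array, 36 were members, with 54 probes. HSF2 and AHSA1 had no probe used here. The label fits most members, but the products of SERPINH1 and HSPA13 are known from the endoplasmic reticulum and its membrane fraction.

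RNA came from 4 cultures on 4 Illumina bead arrays, 1 array per group, which cross 2 cell states with 2 oxygen states. The groups were parental A2058 cells in normoxia, parental A2058 cells in hypoxia, stem-like A2058 cells in normoxia and stem-like A2058 cells in hypoxia. The stem-like cells came from the parental line after 6 months of selection in 100 uM carmustine, which alkylates DNA, and the parental cells are not said to have had that treatment. Cells of all groups were grown in DMEM with serum. The oxygen level, the length of the hypoxia exposure, and whether the stem-like line is a clone or still held carmustine at harvest is not given in the sources used here. With 1 array per group no difference has a replicate check and none was tested, so every fold describes these cultures alone.

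Heat shock proteins keep other proteins folded. HSP70 proteins bind unfolded stretches with the help of J-domain proteins, which deliver clients, and of BAG and HSP110 proteins, which release the bound nucleotide. HSP90 takes over later, with co-chaperones that choose clients such as kinases, and the small heat shock proteins hold unfolded proteins without using ATP. HSPD1 and HSPE1 form the folding chamber of the mitochondrial matrix. Under proteotoxic stress the heat shock factor HSF1 binds heat shock elements in the promoters of many of these genes. Melanoma cells rely on HSP90 clients, among them mutant BRAF.

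Over the 4 cultures the levels of the set spanned about as much as those of all genes, with a median range of 0.49 against 0.53 on the log2 scale. As for genes at large, more members stood apart between the cell states than between normoxia and hypoxia. SERPINH1, which encodes the collagen chaperone HSP47, was 2.70-fold higher in stem-like than in parental cells in normoxia and 2.72-fold higher in hypoxia, and no other member passed 2-fold in either comparison. BAG3, TRAP1, DNAJB6, CRYAB and DNAJA3 stood between 1.58-fold and 1.93-fold higher in the stem-like cells in both oxygen states. CRYAB did not pass 1.5-fold in both without background correction or in the authors' deposited normalized table. TRAP1, DNAJB6 and DNAJA3 did not with median scaling. DNAJB1 and HSPB1 had negative log2 folds in both oxygen states, and stood 1.83-fold and 1.56-fold lower in stem-like normoxia. In hypoxia against normoxia no member passed 2-fold in either cell state, where under 1% of all genes did so in either direction.

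Of the 36 members with a probe, 33 were detected on all 4 arrays, at a detection p-value under 0.01, and the other 3 on none. These were HSF1, the heat shock transcription factor, BAG1, an HSP70 exchange factor, and HSPB8, a small heat shock protein that works with BAG3. The HSF1 probe had detection p-values of 0.0169 in parental normoxia, 0.061 in parental hypoxia and 0.0338 in both stem-like cultures, so its RNA lay near the limit of this array and no fold is given. The HSPB8 probe had detection p-values of 0.922 and 0.696 in parental normoxia and hypoxia and of 0.0351 and 0.0494 in stem-like normoxia and hypoxia. BAG1 had detection p-values between 0.465 and 0.996.

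Levels are log2 values after background correction and quantile normalization, and the lowest detected level was 5.22 to 5.29 depending on the array. The comparison of ranges is with the 9006 genes detected on all 4 arrays. The range over the 4 arrays stayed under 2-fold for 31 of 33 members, or 93.9%, and for 83.3% of all genes. The exceptions were SERPINH1, with a range of 1.77, and BAG3, with a range of 1.01. In bulk RNA, fewer cells that express a gene and less RNA per cell cannot be told apart.

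**Figure D1:**
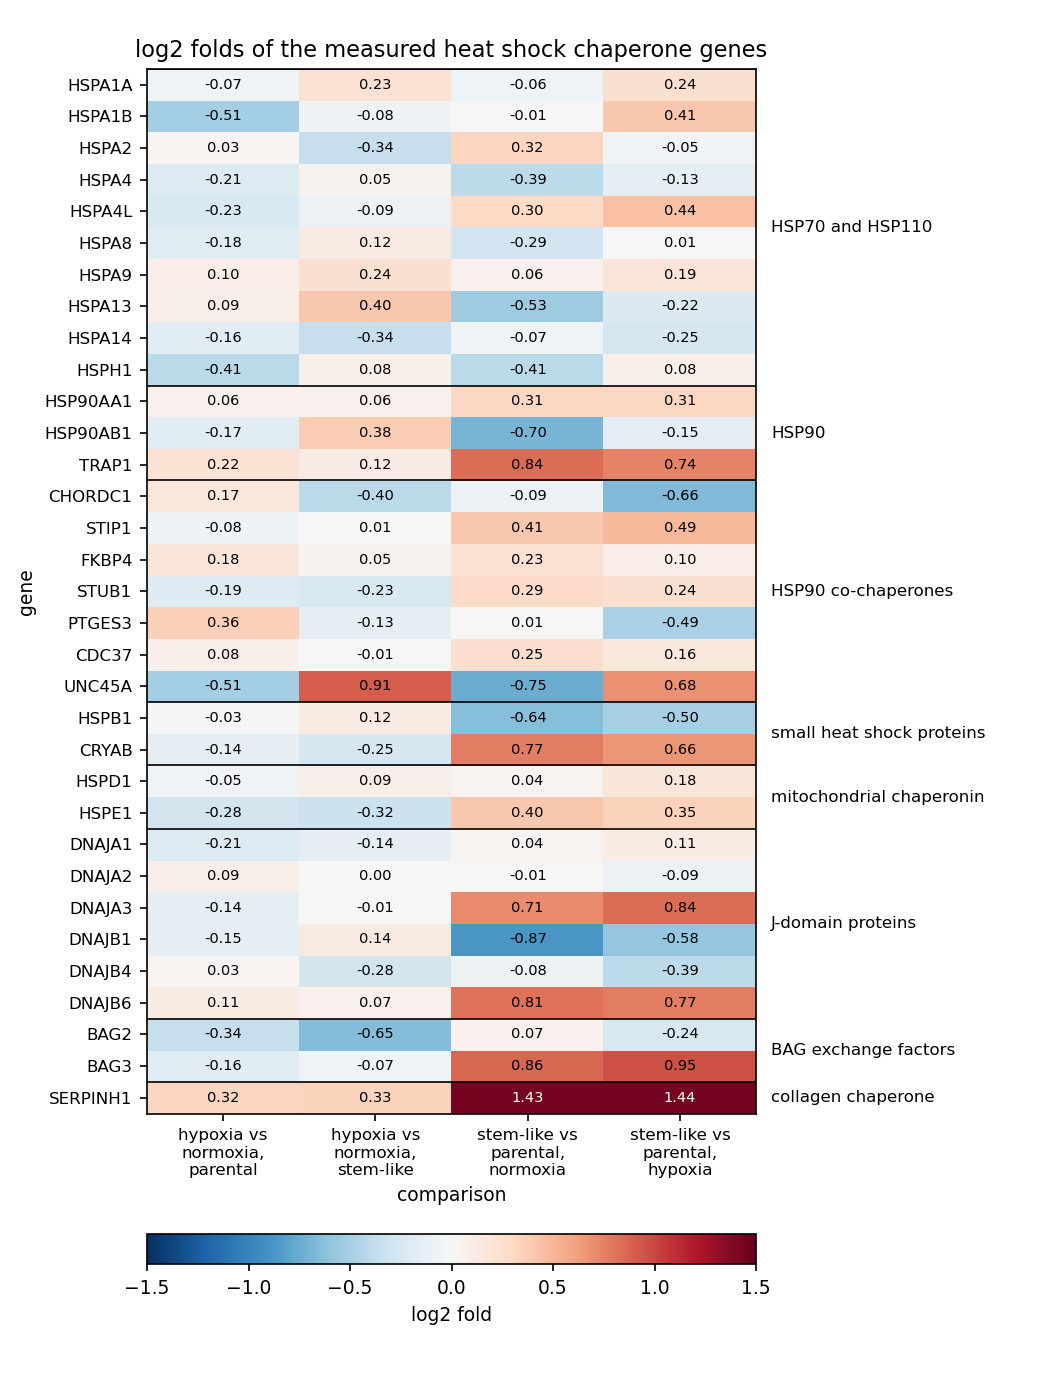
The heat map gives the log2 fold of each of the 33 measured chaperone genes (rows, grouped by role) in 4 comparisons of 1 array against 1 array (columns). SERPINH1 at 1.43 and 1.44 in the cell state columns is the one gene past a log2 fold of 1, and hypoxia folds lie between -0.65 and 0.91.

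The labels were checked on genes outside the set. In hypoxia all 5 measured genes of a hypoxia panel (ENO2, NDRG1, BNIP3, SLC2A1 and VEGFA) were at least 1.5-fold higher in both cell states, with a median log2 fold of 2.22 in the parental line and 0.80 in the stem-like line. The stem-like folds started from higher levels. In normoxia 4 of these 5 genes were at least 2-fold higher in stem-like than in parental cells, with a median log2 fold of 1.36. Of 8 melanoma markers 6 were detected in parental and 3 in stem-like cells. SOX10, a lineage factor, was detected throughout at 9.94 to 11.12, but was 1.73-fold and 2.28-fold lower in stem-like than in parental cells in normoxia and hypoxia. MITF was 4.72-fold and 8.53-fold lower, and PMEL 130-fold and 202-fold. TYR, MLANA and TYRP1 were not detected in the stem-like cells and S100B on no array. The summed normalized signal of the melanoma markers was 12930 and 14219 in parental and 1528 and 1219 in stem-like cells. Of 5 leukocyte markers, CD14 was detected in both stem-like cultures and parental normoxia, LYZ in the stem-like cultures alone, and PTPRC, the pan-leukocyte marker, on no array. The summed normalized signal of that list was 116 and 114 in parental and 361 and 399 in stem-like cells. Fibroblast markers went the other way, with sums of 883 and 1007 in parental and 396 and 333 in stem-like cells, 3 of 7 detected on any array (LUM, DCN and COL1A1) and COL1A2 and COL3A1 on none. Their part in the cell state differences below was not tested.

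Promoter sequence was read for 33 of the 38 members from the RefSeq promoter table (build GRCh38.p14), as 250 bases before and 50 after the transcription start. A heat shock element was searched on both strands as GAANNTTC or TTCNNGAA, and in a longer form of 3 such units in a row, GAA and TTC in turn with 2 bases between them, which contains the shorter form. The shorter form stood in 11 of 33 member promoters, or 33.3%, against 13.7% of all 27305 promoters, and the longer form in 5 of 33, or 15.2%, against 0.48%. Those 5 were SERPINH1, DNAJB6, CHORDC1, HSPA8 and DNAJA1. The core of a hypoxia response element, ACGTG or CACGT, stood in 12 of 33 member promoters, or 36.4%, against 21.6% of all. The letters are a description, and a window without them says nothing of the factor.

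The 150 bases before the start are shown for SERPINH1, the member with the largest cell state fold, for 3 other members with the longer form in that stretch, and for the stress-inducible pair HSPA1A and HSPA1B. Capitals mark the heat shock element letters, where overlapping matches run together. SERPINH1 lies at chr11:75562103-75562252 on the plus strand, DNAJB6 at chr7:157336854-157337003 plus, CHORDC1 at chr11:90223050-90223199 minus, HSPA8 at chr11:123062137-123062286 minus, HSPA1A at chr6:31815393-31815542 plus and HSPA1B at chr6:31827588-31827737 plus.
SERPINH1: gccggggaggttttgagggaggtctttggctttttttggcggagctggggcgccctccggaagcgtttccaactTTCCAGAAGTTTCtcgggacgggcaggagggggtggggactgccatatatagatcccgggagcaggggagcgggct
DNAJB6: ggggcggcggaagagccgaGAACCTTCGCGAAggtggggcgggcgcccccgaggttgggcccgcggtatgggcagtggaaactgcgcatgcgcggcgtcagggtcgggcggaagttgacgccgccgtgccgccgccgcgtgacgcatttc
CHORDC1: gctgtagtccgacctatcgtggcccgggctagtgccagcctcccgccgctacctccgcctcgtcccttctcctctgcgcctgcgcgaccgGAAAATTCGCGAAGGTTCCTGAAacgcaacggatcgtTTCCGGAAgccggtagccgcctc
HSPA8: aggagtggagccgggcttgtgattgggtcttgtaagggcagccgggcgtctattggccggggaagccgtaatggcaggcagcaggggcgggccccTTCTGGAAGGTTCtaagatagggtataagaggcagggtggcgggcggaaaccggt
HSPA1A: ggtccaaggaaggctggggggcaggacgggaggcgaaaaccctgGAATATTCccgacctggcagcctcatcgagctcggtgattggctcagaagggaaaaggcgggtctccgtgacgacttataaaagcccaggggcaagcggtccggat
HSPA1B: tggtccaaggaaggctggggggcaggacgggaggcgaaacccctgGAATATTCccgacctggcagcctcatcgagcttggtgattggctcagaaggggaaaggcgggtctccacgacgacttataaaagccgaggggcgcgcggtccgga
The stretches of HSPA1A and HSPA1B were identical at 141 of 150 bases (94% identity) and each held 1 match. The 5 genes with the longer form had cell state log2 folds in normoxia from -0.29 for HSPA8 to 1.43 for SERPINH1, with a median of 0.04, against -0.87 to 0.86 and a median of 0.03 for the 24 other measured members with a promoter sequence. In parental hypoxia the 5 ran from -0.21 to 0.32 with a median of 0.11, and the 24 from -0.51 to 0.36 with a median of -0.08. The medians were 0.07 and 0.03 in stem-like hypoxia, and 0.11 and 0.17 between the cell states in hypoxia. By the hypoxia response element core, the parental hypoxia medians were -0.10 for 10 measured members with it and -0.07 for 19 without.

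HSPD1 and HSPE1 stand head to head, and the 104 bases between their starts lie at chr2:197500275-197500378. They are shown on the plus strand, in the direction of HSPE1, because one stretch serves both genes. Capitals mark the hypoxia response element core, which reads on both strands here.
HSPD1-HSPE1: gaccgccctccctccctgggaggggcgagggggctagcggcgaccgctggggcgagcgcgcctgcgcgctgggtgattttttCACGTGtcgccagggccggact
By the probe that stands for each gene, the pair had log2 folds of -0.05 and -0.28 in parental hypoxia, 0.09 and -0.32 in stem-like hypoxia, and 0.04 and 0.40 between the cell states in normoxia.

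The first comparison asked how the chaperone set differed between stem-like and parental cells in normoxia. At 2-fold, 1 of 33 measured members was higher and 0 lower, against 6.67% of all genes higher and 5.87% lower. At 1.5-fold, a looser size used because most members moved less, 6 were higher and 4 lower, against 14.1% and 14.6% of all genes. The median log2 fold of the set was 0.04, against -0.01 over all 10758 genes. The between-probe SD of this fold, from 2134 genes with several detected probes, was 0.29, and it holds no error from arrays or cultures. Median scaling instead of quantile normalization moved the median of all genes to -0.21. The 1.5-fold split was then 4 higher and 7 lower, and relative to that median 6 and 4.

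SERPINH1 stood at 8.49 (normoxia) and 8.82 (hypoxia) in the parental line and at 9.92 and 10.26 in the stem-like line. Both stem-like cultures lay above both parental cultures, and hypoxia lay above normoxia within each state. Its raw bead signals were 484, 593, 939 and 1234 in the same order, so the raw signals had the same order. The cell state log2 fold was 1.43 in normoxia, a value that 3.87% of all genes reached, and ranged from 1.17 to 1.43 over the settings tried. With median scaling it was 1.38 relative to the median of all genes.

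BAG3, the stress-induced BAG protein that couples HSP70 to small heat shock proteins and autophagy, stood at 10.29 and 10.14 in parental normoxia and hypoxia and at 11.15 and 11.08 in stem-like normoxia and hypoxia. TRAP1, the HSP90 of the mitochondrial matrix, stood at 8.65 and 8.87 in parental and 9.49 and 9.60 in stem-like cells. DNAJA3, the mitochondrial J-domain partner of HSPA9, stood at 10.80 and 10.65 in parental and 11.50 and 11.49 in stem-like cells. For each of these genes the stem-like cultures lay above the parental ones, with log2 folds in normoxia of 0.86, 0.84 and 0.71. HSPA9, the mitochondrial HSP70 that DNAJA3 assists, had a log2 fold of 0.06. HSPD1 had 0.04 by its brightest probe, -0.42 by a further bright probe and 0.35 by a dimmer one, so its probes did not give one direction.

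DNAJB6, a J-domain protein that suppresses aggregation, stood at 10.16 and 10.27 in parental and 10.97 and 11.04 in stem-like cells by its brighter probe. Its further probe gave a cell state log2 fold of 0.90 beside 0.81, so both probes lay apart in the same direction. CRYAB, the small heat shock protein alpha-B crystallin, was dim, at 5.72 and 5.58 in parental and 6.50 and 6.25 in stem-like cells. Its cell state log2 fold in normoxia was 0.77, and 0.32 in the authors' deposited normalized table and 0.33 without background correction.

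DNAJB1, the stress-inducible J-domain partner of cytosolic HSP70, stood at 10.65 and 10.51 in parental and 9.78 and 9.92 in stem-like cells. HSPB1, the abundant small heat shock protein HSP27, stood at 12.82 and 12.79 in parental and 12.17 and 12.29 in stem-like cells. HSP90AB1, the constitutive cytosolic HSP90, stood at 11.49 and 11.31 in parental and 10.78 and 11.16 in stem-like cells. All 3 lay lower in both stem-like cultures than in either parental culture, with log2 folds in normoxia of -0.87, -0.64 and -0.70. Such separation was common on these arrays. Both stem-like values lay above both parental values for 14 of 33 members, or 42.4%, against 33.9% of all genes, and below them for 8, or 24.2%, against 37.3%. Members of one family stood on opposite sides of 0, in a comparison where 48.8% of all genes lay above 0. The stress-inducible HSP90AA1 had a log2 fold of 0.31 where HSP90AB1 had -0.70, CRYAB 0.77 where HSPB1 had -0.64, and DNAJB6 0.81 where DNAJB1 had -0.87. The value of HSP90AA1 is near the between-probe SD of 0.29, and a dim probe of that gene gave -0.06.

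**Figure D2:**
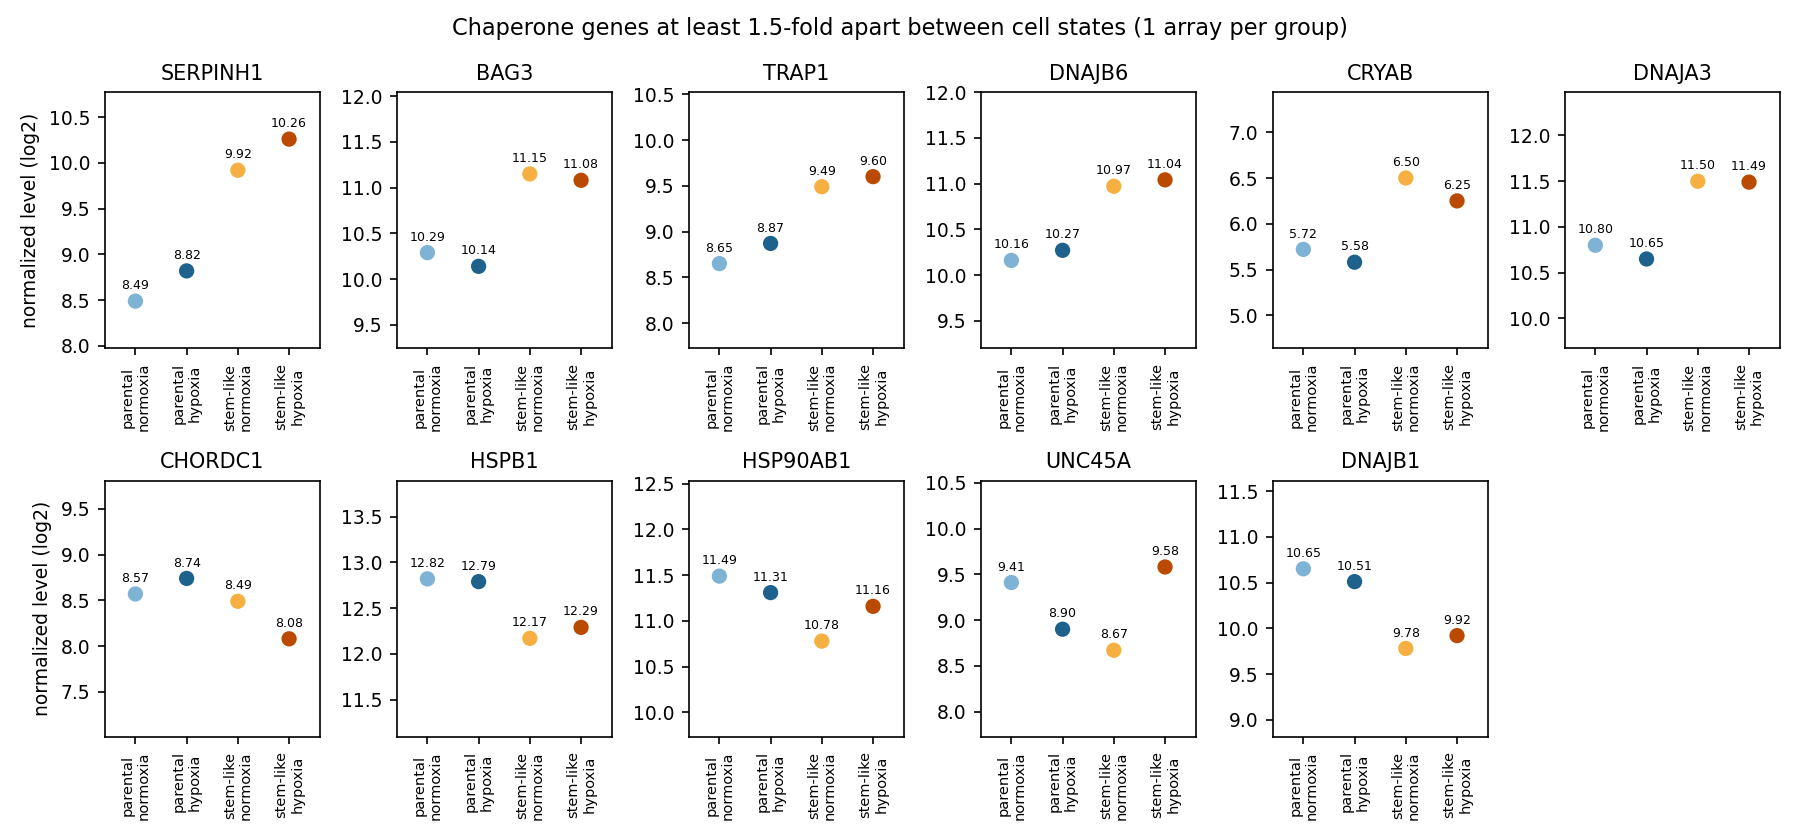
Each panel gives the normalized log2 level of 1 chaperone gene in parental normoxia, parental hypoxia, stem-like normoxia and stem-like hypoxia (1 point per array, no error bar), for the members at least 1.5-fold apart between the cell states in normoxia or hypoxia. All panels span the same log2 height. Both stem-like points lie above both parental points for SERPINH1, BAG3, TRAP1, DNAJB6, CRYAB and DNAJA3, and below them for CHORDC1, HSPB1, HSP90AB1 and DNAJB1.

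The 10 members of the HSP70 and HSP110 group stayed within 1.5-fold between the cell states in normoxia, as did 71.3% of all genes. Their log2 folds ran from -0.53 to 0.32, with a median of -0.07. HSPA1A and HSPA1B, the stress-inducible HSP70 copies, had log2 folds of -0.06 and -0.01. HSPA8, the constitutive HSP70, had -0.29 by its brighter probe and -0.01 by the other. HSPH1, the stress-inducible HSP110, had -0.41. HSPA4, another HSP110 protein, had -0.39 by its brighter probe and 0.39 by the other, and HSPA13 had -0.53 and 0.28, so the probes of these genes did not give one direction. HSPA4L, a further HSP110 protein, had 0.30, HSPA2, known for its role in sperm formation, 0.32 and HSPA14, a ribosome-associated HSP70, -0.07.

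Among the 7 measured HSP90 co-chaperones, 0 were at least 1.5-fold higher and 1 lower in stem-like normoxia, against 14.1% and 14.6% of all genes. STIP1, which bridges HSP70 and HSP90, had a log2 fold of 0.41, STUB1, the ubiquitin ligase CHIP, 0.29, CDC37, which brings kinases to HSP90, 0.25 and FKBP4, an immunophilin of steroid receptor complexes, 0.23. PTGES3, the HSP90 co-chaperone p23, stood at 0.01 and CHORDC1, a stress-responsive HSP90 partner, at -0.09. UNC45A, a myosin chaperone that binds HSP90, had -0.75 by its brighter probe and -0.25 by the other. The remaining J-domain genes DNAJA1, DNAJA2 and DNAJB4 lay between -0.08 and 0.04 by their brightest probes. A further probe of DNAJB4 gave -0.60, and -0.80 between the cell states in hypoxia. That probe was detected on 3 arrays and not in stem-like normoxia. BAG2, which inhibits the ligase STUB1, had 0.07, and HSPE1, the co-chaperonin, 0.40.

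The same comparison was made in hypoxia, on the other pair of arrays. At 2-fold, 1 member was higher and 0 lower, against 7.24% and 5.97% of all genes. At 1.5-fold, 7 were higher and 1 lower, against 14.8% and 15.1% of all genes, and the median was 0.16, against -0.01 over all 11000 genes. The between-probe SD was 0.27. With median scaling, which moved the median of all genes to -0.11, the 1.5-fold split was 4 higher and 4 lower, or 7 and 2 relative to that median. The sign of the cell state fold was the same in both oxygen states for 25 of 33 members, or 75.8%, and for 82.6% of all genes. Members at least 1.5-fold higher in both oxygen states numbered 6, or 18.2%, against 11.3% of all genes. They numbered 5 in the settings that lose CRYAB and 3 with median scaling (BAG3, CRYAB and SERPINH1). Those at least 1.5-fold lower in both numbered 0, against 11.1%. DNAJB1 fell just short, at -0.87 in normoxia and -0.58 in hypoxia. Relative to the median of all genes under median scaling, the same 6 were higher in both. DNAJB1 was then lower in both, at -0.92 and -0.64.

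In hypoxia SERPINH1 had a cell state log2 fold of 1.44, BAG3 0.95, DNAJA3 0.84, DNAJB6 0.77, TRAP1 0.74 and CRYAB 0.66. The value of CRYAB was 0.26 without background correction and in the authors' deposited normalized table, under 1.5-fold. UNC45A was the seventh member by its brighter probe, at 0.68, opposite to that probe's -0.75 in normoxia. Its other detected probe gave -0.38 in hypoxia and -0.25 in normoxia, and so showed no reversal. HSPB1 had -0.50, DNAJB1 -0.58 and HSP90AB1 -0.15. CHORDC1, at -0.66, was the member past 1.5-fold downward. It stood at 8.57 (normoxia) and 8.74 (hypoxia) in the parental line and at 8.49 and 8.08 in the stem-like line, and so was lowest in stem-like hypoxia. By the brightest probes, HSPA1B reached 0.41, HSPA4L 0.44 and STIP1 0.49, while PTGES3 had -0.49. Further probes detected on all 4 arrays, which did not enter the counts, gave 0.82 for HSPE1, 0.66 for STUB1 and 0.62 for HSPA4. The brightest probes of these genes gave 0.35, 0.24 and -0.13. A further probe of HSPD1 gave -0.28 where its brightest probe gave 0.18.

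The second question was how hypoxia and normoxia differed within each cell state. In parental cells 0 of 33 members were higher and 0 lower at 2-fold, against 0.383% and 0.0766% of all genes. At 1.5-fold the counts were also 0 and 0, against 1.83% and 1.05%. Log2 folds ran from -0.51 to 0.36, with 20 members below 0 and 13 above, a median of -0.08, and a median of -0.00 over all 10442 genes. The between-probe SD of a single gene's fold was 0.20.

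By the brightest probes, the lowest parental hypoxia folds belonged to HSPA1B and UNC45A, at -0.51 each, HSPH1 at -0.41 and BAG2 at -0.34. Further probes gave lower values for HSPE1, at -0.90, STUB1, at -0.65, and HSPA2, at -0.62. That HSPA2 probe was not detected in parental hypoxia. The other detected probe of UNC45A gave 0.21. HSPA1B stood at 11.41 (normoxia) and 10.91 (hypoxia) in the parental line and at 11.40 and 11.32 in the stem-like line. Parental hypoxia lay below the other cultures, which stood between 11.32 and 11.41. HSPA1A stood at 10.58, 10.51, 10.52 and 10.75 in the same order and showed no such gap. The transcripts of these copies are nearly the same, so which of them each probe read is uncertain. HSPH1 stood at 11.98 in parental normoxia and at 11.57, 11.57 and 11.64 in the other cultures, so parental normoxia was the high one. The highest parental hypoxia folds by the brightest probes were PTGES3 at 0.36, SERPINH1 at 0.32 and TRAP1 at 0.22. Further probes gave 0.28 for DNAJB4 and 0.27 for HSPD1.

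In stem-like cells 0 members were higher and 0 lower in hypoxia at 2-fold, against 0.491% and 0.189% of all genes. At 1.5-fold 1 was higher, UNC45A at 0.91, and 1 lower, BAG2 at -0.65, against 2.94% and 1.87% of all genes. By its other detected probe UNC45A had 0.08. The median was 0.01, with 18 members above 0 and 15 below, against 0.00 over all 10595 genes, and the between-probe SD was 0.22. BAG2 was dim, at 6.66 (normoxia) and 6.32 (hypoxia) in the parental line and at 6.72 and 6.07 in the stem-like line. It was lower in hypoxia in both states, and its stem-like log2 fold was -0.31 in the authors' deposited normalized table. SERPINH1 had a fold of 0.33, near the 0.32 of parental cells. The stress-inducible members lay on both sides of 0, with HSPA1A at 0.23, DNAJB1 at 0.14, HSPH1 at 0.08 and HSP90AA1 at 0.06, and BAG3 at -0.07, HSPA1B at -0.08 and CHORDC1 at -0.40.

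**Figure D3:**
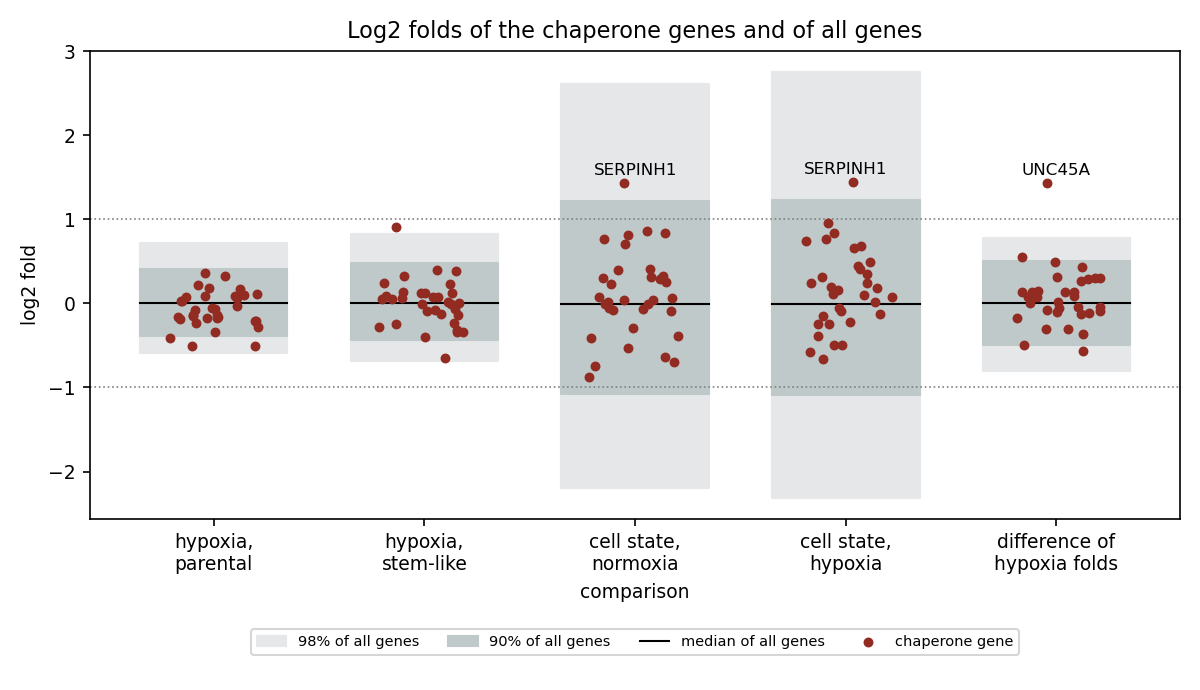
Points are the log2 folds of the 33 measured chaperone genes in each comparison, placed on the central 90% (dark band) and 98% (light band) of all genes, with the median of all genes as a line and dotted lines at log2 folds of 1 and -1. Points are spread sideways for legibility. In the cell state comparisons 32 of 33 lie inside the 90% band, and SERPINH1 lies above it.

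The design also sets the hypoxia folds of the cell states against each other. The difference (stem-like minus parental) reached 2-fold upward for 1 member and downward for 0, against 0.322% and 0.344% of all genes, and 1.5-fold for 1 and 0, against 2.99% and 2.98%. The set's median difference was 0.07, against 0.00 over all 9006 genes, with a between-probe SD of 0.28. In the HSP70 and HSP110 group 8 of 10 differences lay above 0, against 50.1% of all genes, with a median of 0.28. HSPH1 had 0.49, HSPA1B 0.43, HSPA1A 0.30 and HSPA8 0.30, while HSPA2 and HSPA14 had -0.37 and -0.18. The signs rest in part on the probe chosen, since further probes gave -0.11 for HSPA13, which had 0.31, and 0.70 for HSPA2, the latter detected on 3 arrays. Outside that group HSP90AB1 had 0.55, PTGES3 -0.49 and CHORDC1 -0.57.

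UNC45A was the member past 2-fold, with a difference of 1.43 that 0.0222% of all genes reached. Its brighter probe stood at 9.41 (normoxia) and 8.90 (hypoxia) in the parental line and at 8.67 and 9.58 in the stem-like line, so hypoxia was lower in parental and higher in stem-like cells. Its other detected probe stood at 7.95, 8.16, 7.70 and 7.78 in the same order, which gives a difference of -0.12. Both probes were detected on all 4 arrays, and their gap of 1.55 is larger than the between-probe SD of 0.28. A further pair of probes of UNC45A was detected on no array.

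Of the 9 members with several probes detected on all 4 arrays, 3 had a gap in this difference of over 2 between-probe SDs, namely UNC45A, HSPE1 and STUB1. The same share over all genes with several probes was not computed. Whether these members disagree more than genes at large was therefore not tested. The other probe of HSPE1 stood at 11.28 (normoxia) and 10.38 (hypoxia) in the parental line and at 11.32 and 11.20 in the stem-like line, a parental hypoxia log2 fold of -0.90 where the brighter probe gave -0.28. The other probe of STUB1 gave -0.65 in parental hypoxia where the brighter one gave -0.19. HSPA8 and DNAJB6 had gaps of 0.15 and 0.00. HSP90AA1 had log2 folds in stem-like normoxia against parental normoxia of 0.31, 0.50 and -0.06 by its 3 probes, of which the last was dim, at 5.77 in parental normoxia.

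**Figure D4:**
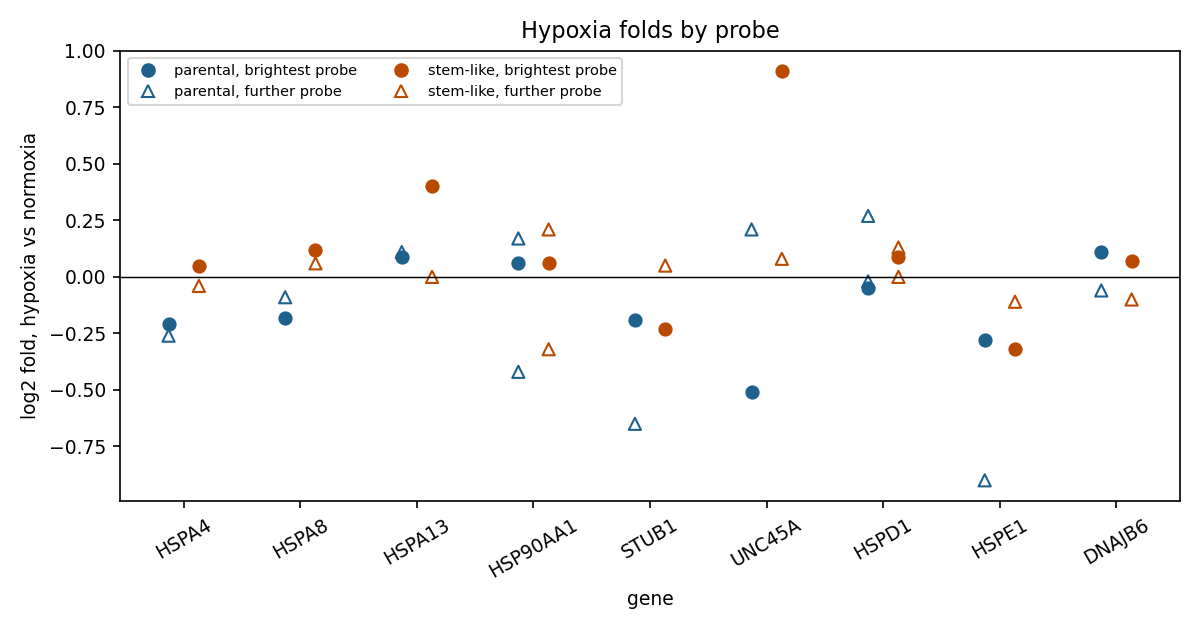
Hypoxia log2 folds are given by probe for the 9 chaperone genes with several probes detected on all 4 arrays, in parental (blue) and stem-like cells (orange), with filled circles for the brightest probe and open triangles for further probes. Probes of UNC45A lie far apart in both cell states, and those of HSPE1 in parental cells at -0.90 and -0.28.

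Other parts of the folding machinery were read from 8 lists with 110 entries. The counts past 2-fold between the cell states stand beside 6.67% of all genes higher and 5.87% lower in normoxia, and 7.24% and 5.97% in hypoxia, and no list was tested against these shares. The cytosolic chaperonin, which folds actin and tubulin, had 8 of 8 subunits measured and 0 past 2-fold in any comparison. CCT5 had the largest fold, 0.62 between the cell states in hypoxia, followed by CCT6A at -0.44 in normoxia and CCT4 at -0.39 in parental hypoxia. In parental hypoxia 7 of 8 subunits lay below 0, against 50.3% of all genes, with a median of -0.17, and in stem-like hypoxia 4 of 8 against 49.6%, with a median of 0.02. Prefoldin, which hands actin and tubulin chains to that chaperonin, had 6 of 6 measured and 0 past 2-fold. VBP1 stood at -0.68 and -0.76 between the cell states in normoxia and hypoxia, PFDN5 at 0.48 and 0.61 and PFDN6 at 0.32 and 0.44.

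Of 27 detected genes among 32 of the wider HSP70 system, 0 were higher and 2 lower at 2-fold in stem-like normoxia, and 2 were higher and 2 lower in hypoxia. HSPA12A, a distant HSP70 relative, was 3.28-fold lower in normoxia and 4.05-fold lower in hypoxia. DNAJC15, a J-domain protein of the mitochondrial import motor, was 1.94-fold and 2.76-fold higher, and BAG5, a BAG protein, 1.64-fold and 2.10-fold. The other gene lower in both was HIP1, an endocytic adaptor that shares its name with an HSP70 partner but is not a chaperone gene. Of the wider HSP90 system, 1 of 14 was higher and 0 lower in normoxia and 3 of 15 and 0 in hypoxia. RUVBL2 and PIH1D1, partners in a complex that assembles large RNA-protein and kinase complexes with HSP90, were 2.74-fold and 2.04-fold higher in stem-like hypoxia, and the HSP90 adaptor SUGT1 2.14-fold.

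The endoplasmic reticulum had 15 of 16 listed chaperones detected, with 1 higher and 0 lower at 2-fold in both cell state comparisons. That gene was HSPA5, the HSP70 of this compartment, at 2.92-fold in normoxia and 2.65-fold in hypoxia. It stood at 7.81 and 7.86 in parental and 9.35 and 9.27 in stem-like cells. P4HB, a disulfide isomerase and subunit of collagen prolyl hydroxylase, had -0.75 and -0.56, and DNAJC3, an inhibitor of the kinase PERK, -0.62 and -0.38. The list's median was 0.01 in normoxia and 0.02 in hypoxia.

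Of 12 detected genes among 15 further genes known as HSF1-regulated or HSF1-related, 0 were higher and 0 lower at 2-fold in stem-like normoxia, and 1 was higher and 2 lower in hypoxia. RGS2, a regulator of G protein signalling, was 4.09-fold higher in stem-like hypoxia, and IER5, which promotes HSF1 activity, 2.65-fold lower. HSF4, a heat shock factor of the lens, was 2.02-fold lower there and near the detection limit, at 6.24 in parental and 5.23 in stem-like hypoxia. Of 9 detected mitochondrial proteases, HTRA2 was 2.11-fold higher in stem-like normoxia and at 0.28 in hypoxia. OMA1 had -0.33 and -0.60, and LONP1 -0.17 and 0.03. Of 7 other small heat shock protein genes, IFT25, also known as HSPB11, was the one detected, with log2 folds between -0.26 and 0.09.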

How the data were processed

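RNA of 4 A2058 cultures was hybridised as biotin-labelled cRNA to Illumina bead arrays, as the labels' protocols state. The deposited non-normalized table gives a mean bead intensity per probe on a linear scale and a detection p-value, per the file headers. The authors' own normalized intensity table, also deposited, has equal quantiles on all arrays, judged from the values. How that table was normalized, and the scanner software, is not given in the sources used here.

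The non-normalized table holds 47315 identifiers for 47323 lines of values, and 98.0% of the identifiers stood out of step with their values. Each line was given the identifier whose normalized values fitted it best, keeping the order of both. This raised the Spearman rho between 2 probes of a gene, over 6691 genes, from 0.022 to 0.482. The 8 lines matching no probe were not used here, and the step was decided after the values were seen.

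Signals were processed with limma 3.58.1 in R 4.3.3 (normexp with negative controls inferred from detection p-values, offset 16, quantile normalization, log2) and tested on simulated data. The offset shrinks folds of dim genes. Probes were named through the platform annotation, which can be old: 30112 had 1 symbol, 8 several and 17195 none. The RefSeq table used is of assembly GRCh38.p14. The probe with the highest mean stands for a gene. Folds need detection (p-value under 0.01) on at least 1 array of a comparison, and the lowest detected value of an array served as its floor. No test was made, and the number of arrays limits the precision.

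Members, lists and roles were chosen with earlier results of these data known. All members are named. The 1.5-fold size was added after seeing the data. From each further list up to 3 genes with the largest absolute log2 folds are named, and HIP1, chosen after its values were seen. Alternatives tried were no background correction, median scaling, the authors' table, a detection p-value under 0.05, no detection filter, the mean of detected probes, and leaving out HSPA1A and HSPA1B.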

Additional observations from a re-analysis of the deposited data

Results flagged for a closer look

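The hypoxia response of UNC45A pointed opposite ways in the cell states, with a log2 fold of -0.51 in the parental line, 0.91 in the stem-like line and a difference of 1.43 (stem-like minus parental). This drew attention because hypoxia lay below normoxia in the parental line and above it in the stem-like line, with 1 array against 1 in each. The difference was not tested. The other detected probe of UNC45A gave 0.21 in the parental line, 0.08 in the stem-like line and a difference of -0.12.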

How the results depend on the processing

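No paired analysis was possible because each group holds 1 array and the labels give no replicate numbers to pair on. An additive fit over both oxygen states, which would take the difference of hypoxia responses as error, was not run. SERPINH1 stayed past 2-fold between the cell states without background correction, with median scaling and in the authors' table. Its log2 folds over the settings ran from 1.17 to 1.43 in normoxia and from 1.25 to 1.44 in hypoxia. It has 1 probe, detected on all 4 arrays, so the detection settings and the mean of detected probes could not change its value. With median scaling, 1 member was higher at 2-fold in stem-like hypoxia against 0, and 0 were lower at 1.5-fold against 1. The same setting gave 2 lower at 2-fold against 0 and 7 lower at 1.5-fold against 4 between the cell states in normoxia. In hypoxia it gave 4 higher against 7 and 4 lower against 1 at 1.5-fold, and for the difference of hypoxia responses 2 higher at 1.5-fold against 1. These moves go with its shift of the median of all genes, to -0.21 and -0.11 between the cell states. Both the authors' table and the setting with no background correction gave the same counts: 0 members were lower at 1.5-fold in stem-like hypoxia and 0 between the cell states in hypoxia, against 1 each. Both also lost CRYAB, which left 5 higher between the cell states in normoxia against 6 and 6 in hypoxia against 7. With the mean of detected probes, 1 member was lower at 1.5-fold in parental hypoxia against 0, 0 were higher in stem-like hypoxia against 1, and 2 were lower between the cell states in hypoxia against 1. That setting also left 0 members past a 2-fold difference of hypoxia responses against 1. Median scaling turned the set's median from 0.04 to -0.13 between the cell states in normoxia and from 0.16 to -0.02 in hypoxia. Leaving out HSPA1A and HSPA1B took the median difference of hypoxia responses from 0.07 to 0.01. Of 165 member folds, 14 moved by more than that SD with the mean of detected probes, 5 with no background correction, 5 in the authors' table and 0 with each of the other 3 settings. None of the 21 folds past 1.5-fold changed sign under the 6 alternatives that recompute member folds. Leaving out HSPA1A and HSPA1B, neither of which passed 1.5-fold, changed no count. The causes of the moves were not tested beyond the shift named. Signal over background limits HSF1, HSPB8, BAG1, CRYAB, BAG2, DNAJB4, HSPA2 and HSPA13.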
